A study of Mus musculus with 10 samples.

Results

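Brown adipocytes kept with the solvent DMSO alone were compared at 3 days and at 1 day of treatment, across all genes. The comparison used 4 of the 10 libraries, 2 labelled DMSO at 1 day and 2 labelled DMSO at 3 days, chosen by these labels and by no measured value. The deposited counts list 24640 gene symbols, of which 15212 passed a filter on low counts and were tested. All 10 libraries are labelled brown adipocytes of strain C57BL/6, and no genotype, age or sex is among the labels. The other libraries are 2 each of BML-260 (a small molecule marketed against the phosphatase Dusp22) at 1 day and at 3 days, and 2 of ISO, an abbreviation that the labels leave unexplained and list at 1 day. BML-260 at 3 days against 1 day is used below as the same time step in 4 libraries of their own. Cells without DMSO were not analysed here, so the values compare times in DMSO and not DMSO with its absence. The sources used here do not give the day of differentiation on which treatment began, any change of medium or the hour of collection. Nor do they say if both libraries of a group are separate cultures or animals. The p-values thus rest on the spread of these libraries alone, and that spread may be technical.

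Brown adipocytes are fat cells with many small lipid droplets and many mitochondria. Their uncoupling protein, Ucp1, lets the respiratory chain run without making ATP, so that fuel is turned into heat. In culture they are grown from fibroblast-like precursors, which lay down collagen and fibronectin and switch on the lipid genes as they differentiate. Cultures can therefore hold both mature cells and precursors, and in such bulk samples fewer cells of a type and less RNA per cell cannot be told apart.

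The 4 DMSO libraries held 17107063 to 19296922 counts, and all 10 held 16955918 to 21185675. CPM, the counts scaled to a common library size, were close between both libraries of a time, with r across genes of 0.994 at 1 day and 0.995 at 3 days on the log2 scale. The labelled cell type was checked by markers of fat cells and of other cell types. Fabp4, the fatty acid binding protein of fat cells, stood at 6517 and 6268 CPM at 1 day and at 4674 and 4524 CPM at 3 days. By contrast 9 macrophage and leukocyte markers summed to at most 7.52 CPM in the DMSO libraries, and 11 endothelial markers to at most 12.3 CPM. The leukocyte gene Cd3e had at most 2 counts in a library and the endothelial gene Cdh5 at most 1. Ucp1 was detected at a low level, 6.06 and 5.10 CPM at 1 day. Of 25 listed brown fat genes 22 passed the filter on low counts. Dio2 and Bmp8b did not, with at most 2 and 9 counts in any of the 10 libraries. The first principal component of log2 CPM placed DMSO at 1 day at -28.6 and -27.3 and DMSO at 3 days at 5.05 and 4.94, with no overlap.

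Time in DMSO changed the level of 5313 genes, 34.9% of those tested, at an adjusted p under 0.05 (edgeR's quasi-likelihood test with Benjamini-Hochberg adjustment, as for every adjusted p below). Of these 2753 were higher at 3 days (18.1% of genes tested) and 2560 were lower (16.8%). Most changes were small: the median absolute log2 fold change of the called genes was 0.318, and 1186 of them reached 0.5. A change of at least 1, a doubling or a halving, was reached by 249 genes, 131 higher and 118 lower. Only 50 of these 249 had a mean of 10 CPM or more in the group where they were higher, 29 higher and 21 lower at 3 days. The share called depended on level. Among genes under 1 CPM on average 5.83% were called, with 0.96 the smallest absolute log2 fold change called, and among genes of 100 CPM or more 60.2% were called, down to 0.11. At 5308 of the 5313 called genes both 3-day libraries lay on the same side of both 1-day libraries. For comparison, over all tested genes both 3-day libraries lay above both 1-day libraries at 34.4% and below them at 32.2%. A lack of overlap at a called gene, where given below, therefore adds little to its call.

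**Figure D1:**
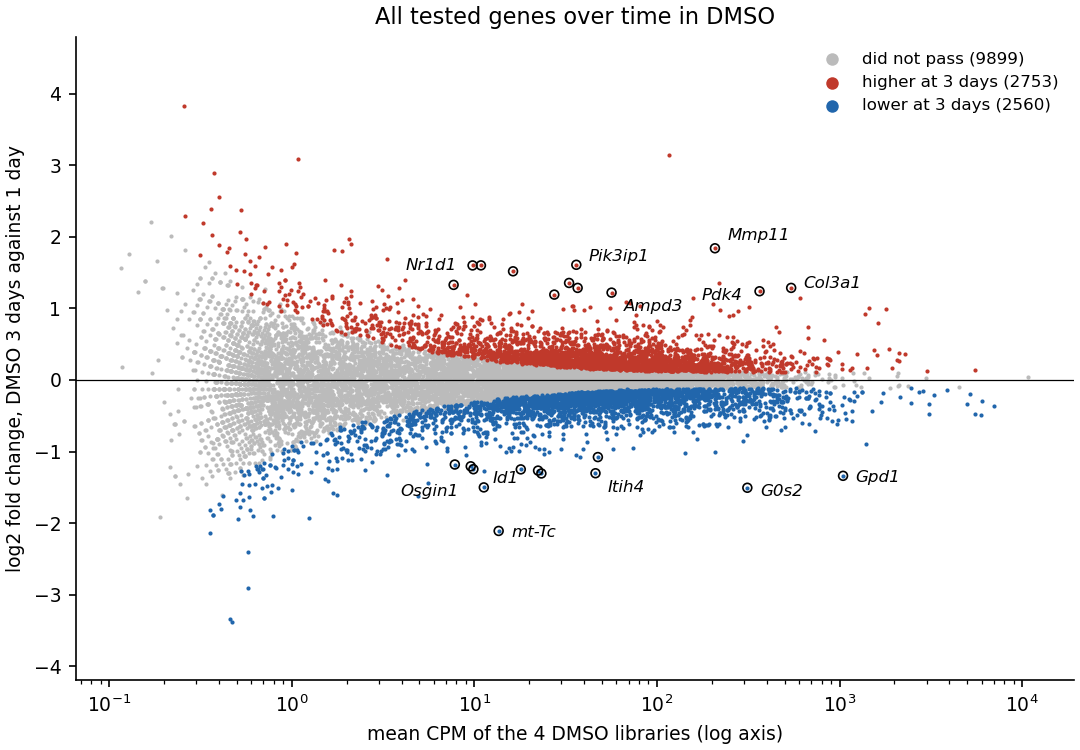
Log2 fold change of DMSO at 3 days against 1 day (vertical axis) for each of the 15212 tested genes, against its mean CPM in the 4 DMSO libraries (log axis). Red points (2753) passed as higher and blue points (2560) as lower at 3 days, grey points did not pass, and circles mark the 24 named genes of largest change; called genes of low CPM all have large fold changes, and called genes of high CPM reach down to small ones.

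The genes of largest rise encode matrix enzymes, collagen and regulators of fuel use. Genes of largest change were named only if the libraries of both times did not overlap, so their separation was set by that choice. Mmp11, a secreted matrix protease known from stromal cells (chromosome 10, 75923222 to 75936496, minus strand, GRCm38), stood at 84.1 and 97.2 CPM at 1 day and at 297 and 354 CPM at 3 days. Its rise was 3.59-fold (log2 fold change 1.84, SE 0.08, adjusted p = 4.5e-15). Pik3ip1, an inhibitor of phosphatidylinositol 3-kinase (chromosome 11, 3330401 to 3342971, plus strand), went from 17.5 and 18.3 CPM to 51.3 and 57.9 CPM. Its log2 fold change was 1.61 (SE 0.08, adjusted p = 8.8e-14). Pdk4, the kinase that switches off pyruvate dehydrogenase when fat is burned (chromosome 6, 5483351 to 5496309, minus strand), went from 210 and 224 CPM to 478 and 547 CPM. That is a 2.36-fold rise (log2 fold change 1.24, SE 0.07, adjusted p = 1.9e-13), and Pdk4 was the most abundant of the 12 named risers after Col3a1. Ampd3, an AMP deaminase, rose from 33.3 and 34.5 CPM to 74.6 and 83.7 CPM (log2 fold change 1.22, SE 0.06, adjusted p = 4.9e-14). The remaining named risers were the clock repressor Nr1d1, the collagen-binding integrin Itga11, the transcription factor Tfap4, Tmem140, the procollagen protease Adamts2, Col3a1, the actin-binding protein Tagln and the secreted protease Htra1, at log2 fold changes from 1.19 to 1.60. One row outside the naming rule, 8430408G22Rik (the FOXO-responsive gene now named Depp1), is given because of its size and was picked after its values were seen. It stood at 23.1 and 24.3 CPM at 1 day and at 187 and 232 CPM at 3 days, the largest log2 fold change of any gene that reached 10 CPM at either time, 3.15 (SE 0.11, adjusted p = 2.4e-17).

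Among the genes of largest fall, lipid genes led by level. Gpd1, the cytosolic enzyme that makes glycerol 3-phosphate for triglycerides (chromosome 15, 99717515 to 99725005, plus strand), stood at 1487 and 1510 CPM at 1 day and at 594 and 590 CPM at 3 days. The 2 libraries of each time were nearly equal, and the fall was 2.53-fold (log2 fold change -1.34, SE 0.05, adjusted p = 8.0e-16). G0s2, the inhibitor of the fat lipase Pnpla2 (chromosome 1, 193272161 to 193273217, minus strand), went from 444 and 482 CPM to 169 and 157 CPM. It fell 2.84-fold (log2 fold change -1.51, SE 0.08, adjusted p = 1.4e-13). Nat8l, which makes N-acetylaspartate in brown fat, fell from 30.5 and 36 CPM to 13.8 and 13.1 CPM. Sucnr1, the receptor for succinate, fell from 11.3 and 10.5 CPM to 4.78 and 4.8 CPM. Id1, a repressor of basic helix-loop-helix factors and a target of BMP signals, fell from 31.2 and 32.0 CPM to 13.0 and 13.3 CPM. The other named genes were Osgin1, Itih4, the matrix protease Adamts15, Hdhd3, Aatk and Fam195a, at log2 fold changes from -1.5 to -1.08. The mitochondrial cysteine transfer RNA mt-Tc had the lowest value of the named genes, -2.11, and rested largely on 1 library: it was at 33.9 and 10.4 CPM at 1 day and at 4.27 and 5.88 CPM at 3 days, and without DMSO 1 day replicate 1 its log2 fold change was -1.04 (adjusted p = 0.00049). Exons of 73 of the 222 named genes overlap those of another annotated gene. Among the genes above these are Mmp11, Pik3ip1, Nr1d1, Tmem140, Col3a1, Tagln, Ampd3 and Gpd1, and among those below they include Fn1, Fbn1, Pdgfra, Cebpa, Esrra, Srebf1, Agpat2, Hadha, Txnip, Fbxo32, Ndrg1, Bhlhe40, Sqstm1, Nfkb2, Mb and Egfl7. The sources used here do not say whether counting used strand, so reads of such neighbours cannot be told apart.

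**Figure D2:**
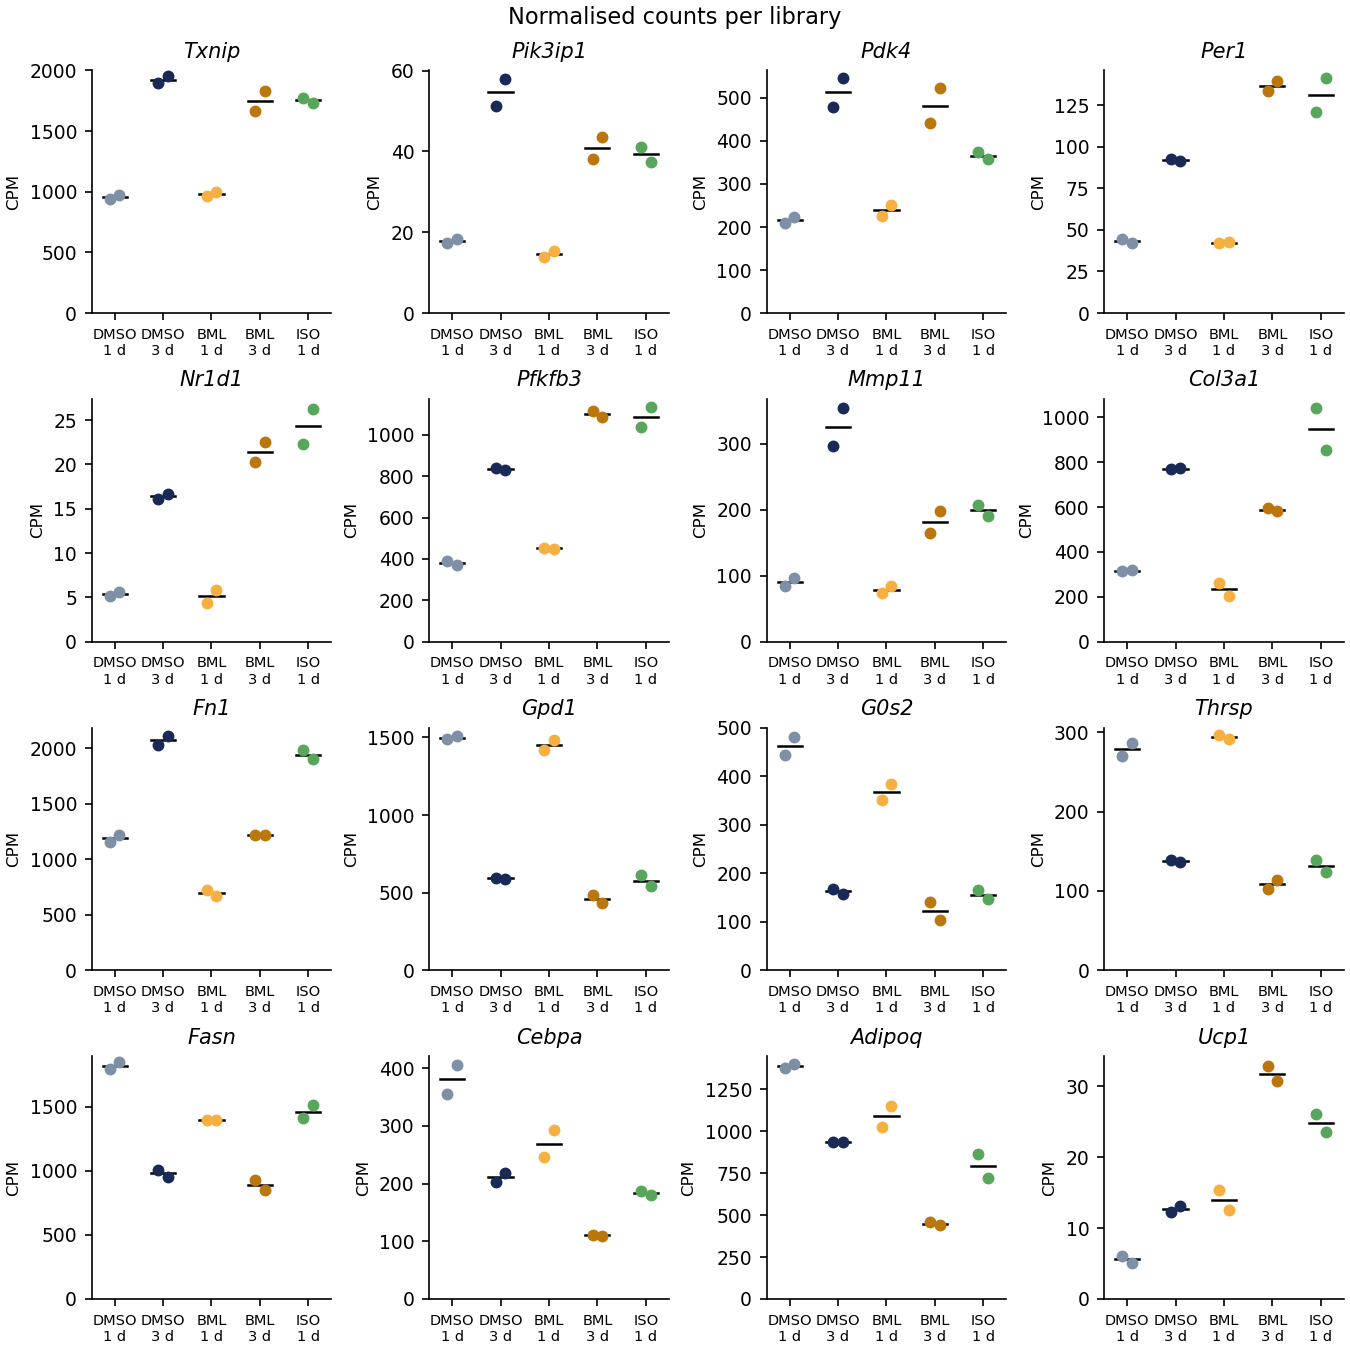
CPM of 16 genes in each of the 10 libraries, 1 panel per gene with its own axis from 0; each point is a library, each bar the mean of its group (n = 2), and DMSO groups are grey-blue (1 day) and dark blue (3 days), BML-260 groups light and dark orange, and ISO green. In every panel the DMSO libraries of 3 days lie apart from those of 1 day, above them for Txnip to Fn1 and for Ucp1 and below them for Gpd1 to Adipoq.

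Most genes of the extracellular matrix rose. Of 18 tested collagen genes (of 19 listed) 17 were higher at 3 days and 0 lower, with a median log2 fold change of 0.50, against 18.1% higher and a median of 0.01 over all genes tested. No collagen had a negative value: the lowest was Col18a1 at 0.15, and Col11a1 (0.34, adjusted p = 0.11) was the 1 member that did not pass. Collagens I, III and V are the fibril-forming chains of loose connective tissue. Col1a1 stood at 1129 and 1278 CPM at 1 day and at 2288 and 2519 CPM at 3 days, a 2-fold rise (log2 fold change 1.00, SE 0.06, adjusted p = 8.2e-13). Col3a1 went from 313 and 318 CPM to 768 and 775 CPM (log2 fold change 1.29, SE 0.08, adjusted p = 9.1e-13), and Col1a2, the partner chain of Col1a1, from 918 and 978 CPM to 1738 and 1871 CPM (log2 fold change 0.93). None of these 3 overlapped between times. Col5a2 and Col5a3 rose by less, 0.75 and 0.52 on the log2 scale.

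Other matrix proteins and the enzymes that cross-link them followed the same pattern, 24 of 31 tested members higher and 1 lower (Emilin1), with a median of 0.41. Fn1, the fibronectin that cells attach to, went from 1157 and 1221 CPM to 2029 and 2115 CPM, with the groups well apart (log2 fold change 0.80, SE 0.05, adjusted p = 5.3e-13). Postn, a matrix protein of activated fibroblasts, went from 135 and 128 CPM to 267 and 283 CPM, and Thbs2, an antiangiogenic thrombospondin, from 202 and 217 CPM to 399 and 452 CPM. Their log2 fold changes were 1.06 and 1.02. Tnc and the proteoglycan Bgn rose by 0.81 and 0.57. Among matrix proteases and their inhibitors 12 of 20 tested members were higher and 3 lower: besides Mmp11 and Adamts2, the inhibitor Timp2 rose by 0.49, while Adamts15 fell by 1.25 on the log2 scale. In SRF and YAP target genes, which respond to actin tension, the direction was mixed, with 7 of 18 higher and 4 lower. The shares over all genes tested were 18.1% higher and 16.8% lower. Tagln rose by 1.29 and Acta2 by 0.56, and the transcription factor Srf itself fell by 0.52.

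Markers of precursors and fibroblasts moved with the matrix genes. Of 12 tested members (of 17 listed) 10 were higher and 0 lower, with Ly6a (-0.14) and Pi16 (0.60) not passing. The shares over all genes tested were 18.1% higher and 16.8% lower. The summed level of the list (15 genes in the table) was 989 and 971 CPM at 1 day and 1443 and 1474 CPM at 3 days. Pdgfra, the receptor that marks adipose precursors, stood at 26.2 and 27.8 CPM and then at 53.9 and 52.8 CPM (log2 fold change 0.98, SE 0.07, adjusted p = 3.5e-11). Fbn1, the microfibril protein fibrillin, rose by 0.90 and Pdgfrb by 0.71. Postn and Fbn1 are matrix genes as well as markers. Smooth muscle and pericyte markers summed to 480 and 485 CPM at 1 day and to 542 and 559 CPM at 3 days, with 5 of 11 tested members higher and 1 lower. The part of the cell mixture in the changes of matrix and lipid genes was not tested.

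Genes of mitochondrial fuel use fell in nearly all members. Of 53 nuclear genes of the respiratory chain and ATP synthase, every one tested, 49 were lower at 3 days and 0 higher, with a median log2 fold change of -0.42, against 16.8% lower over all genes. The members ran from -0.72 (Cycs, cytochrome c) to 0.00 (Cox7c). The 4 that did not pass were Cox7c, Cox7a1 (-0.02), Atp5c1 (-0.10) and Atp5g3 (-0.09). By complex, 20 of 20 genes of complex I were lower (median -0.41), 4 of 4 of complex II (-0.46), 9 of 9 of complex III with cytochrome c (-0.42), 9 of 11 of complex IV (-0.37) and 7 of 9 of ATP synthase (-0.42). Ndufs8, a subunit of complex I, which takes electrons from NADH, went from 229 and 235 CPM to 149 and 151 CPM (log2 fold change -0.63, SE 0.05, adjusted p = 5.9e-11). Ndufa4, counted here by its name although it is now placed in complex IV, went from 488 and 476 CPM to 308 and 306 CPM (log2 fold change -0.65). In both genes the 2 libraries of a time differed by far less than the times did. The share of all counts in mitochondrial gene symbols was 0.872% and 0.854% at 1 day and 0.667% and 0.689% at 3 days. The 3 tested mitochondrially encoded protein genes, named here after their values were seen, also fell: mt-Nd3 by 0.54, mt-Nd5 by 0.41 and mt-Co3 by 0.36 on the log2 scale.

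The citric acid cycle, which feeds the chain, had 20 of 22 genes lower and 0 higher (median -0.37, none above -0.04). Ogdh, a subunit of the oxoglutarate dehydrogenase, went from 501 and 481 CPM to 336 and 327 CPM, with the times apart (log2 fold change -0.57, SE 0.04, adjusted p = 1.7e-10). Sdhb, counted in this list and in the respiratory chain, fell by 0.51. In fatty acid oxidation 20 of 24 tested members were lower and 2 higher (median -0.37). Hadha, of the mitochondrial trifunctional protein, went from 1325 and 1244 CPM to 898 and 861 CPM (log2 fold change -0.55, SE 0.04, adjusted p = 2.8e-10), and Cpt2, Crat and Etfb fell by 0.57, 0.61 and 0.53. The 2 that rose were Pdk4, described above, and Cpt1a, the carnitine transferase that admits fatty acids to mitochondria, at 32.1 and 30.1 CPM and then at 37.5 and 36.2 CPM (log2 fold change 0.25, adjusted p = 0.0061). Breakdown of branched-chain amino acids was less one-sided, with 12 of 24 lower and 3 higher (median -0.14). The shares over all genes tested were 16.8% lower and 18.1% higher. Its named members Acat1, Dld, Bckdk, Ivd and Hsd17b10 fell by 0.36 to 0.42.

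Lipid synthesis and storage genes were lower in the main, with exceptions, against 16.8% lower and 18.1% higher over all genes tested. In fatty acid synthesis 10 of 19 were lower and 4 higher. Fasn, the fatty acid synthase, stood at 1798 and 1845 CPM at 1 day and at 1010 and 951 CPM at 3 days (log2 fold change -0.89, SE 0.05, adjusted p = 1.4e-13). Thrsp, a partner of lipogenesis, went from 271 and 286 CPM to 140 and 137 CPM (log2 fold change -1.01, SE 0.05, adjusted p = 1.4e-13), and the lipogenic transcription factor Srebf1 from 1043 and 1133 CPM to 744 and 725 CPM (log2 fold change -0.57). At all 3 genes the times did not overlap. Acly and Slc25a1, which supply cytosolic acetyl-CoA, fell by 0.45 and 0.32. In triglyceride synthesis and droplet genes 13 of 24 tested members were lower and 4 higher (median -0.25): Gpd1, Agpat2 and Dgat2 fell by 1.34, 0.65 and 0.62, the droplet protein Cidec fell by 0.49, and its relative Cidea rose. In lipolysis 10 of 15 were lower and 2 higher (median -0.29). Lipe, the hormone-sensitive lipase, fell by 0.49, Mgll, the monoglyceride lipase, by 0.49, and Hcar1, the lactate receptor that restrains lipolysis, by 0.66. The restraint on Pnpla2, G0s2, fell by 1.51, and Pnpla2 itself was at 0.12 (adjusted p = 0.097).

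Adipocyte identity genes fell, with the receptor at their head as an exception. Of 25 tested members 19 were lower and 3 higher (median -0.36). Adipoq, the adiponectin hormone, stood at 1379 and 1401 CPM at 1 day and at 938 and 935 CPM at 3 days (log2 fold change -0.57, SE 0.06, adjusted p = 2.8e-08). Fabp4 fell by 0.48 (adjusted p = 1.2e-09), Cfd, the secreted protease adipsin, by 0.71 and Retn, the hormone resistin, by 1.00. Cebpa, the transcription factor that keeps adipocytes differentiated, went from 355 and 406 CPM to 204 and 218 CPM (log2 fold change -0.85, SE 0.06, adjusted p = 6.6e-11). Pparg, its partner and the main adipogenic receptor, moved the other way, from 420 and 406 CPM to 534 and 534 CPM (log2 fold change 0.37, SE 0.04, adjusted p = 1.1e-07). Neither gene overlapped between times. Over 22 adipogenic transcription factors 5 were higher, 6 lower and 11 did not pass. The shares over all genes tested were 18.1% higher and 16.8% lower. Lep, leptin, was at 6.29 and 3.60 CPM and then at 5.8 and 6.76 CPM, overlapping (log2 fold change 0.36, adjusted p = 0.17). Without DMSO 1 day replicate 1 its log2 fold change was 0.80 (adjusted p = 0.0094), and without DMSO 1 day replicate 2 it was -0.003 (adjusted p = 0.99).

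Brown fat genes did not move together. Of 22 tested members (of 25 listed) 4 were higher, 7 lower and 11 did not pass, with a median of -0.05. The shares over all genes tested were 18.1% higher and 16.8% lower, so the 4 higher were near that share. Without DMSO 1 day replicate 2 the number lower was 4. Ucp1 rose from 6.06 and 5.10 CPM to 12.3 and 13.2 CPM, a 2.28-fold rise from a low level (log2 fold change 1.19, SE 0.13, adjusted p = 8.4e-08). Cidea went from 128 and 130 CPM to 196 and 205 CPM (log2 fold change 0.63, SE 0.06, adjusted p = 1.3e-09). Both were higher in both 3-day libraries. In contrast Esrra, a driver of mitochondrial genes, fell from 113 and 122 CPM to 70.5 and 71.9 CPM (log2 fold change -0.73), Adrb1, a beta-adrenergic receptor, fell by 0.99 and Letmd1 by 0.37. Ppargc1a, the coactivator of mitochondrial and thermogenic genes, was at 49.7 and 51.0 CPM and at 48.7 and 48.2 CPM (log2 fold change -0.06, SE 0.06, adjusted p = 0.50). Elovl3 (-0.17, SE 0.13, adjusted p = 0.32), the beta-adrenergic receptor Adrb3 (0.18, SE 0.09, adjusted p = 0.16) and Dusp22 (-0.09, SE 0.06, adjusted p = 0.23) did not pass either.

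**Figure D3:**
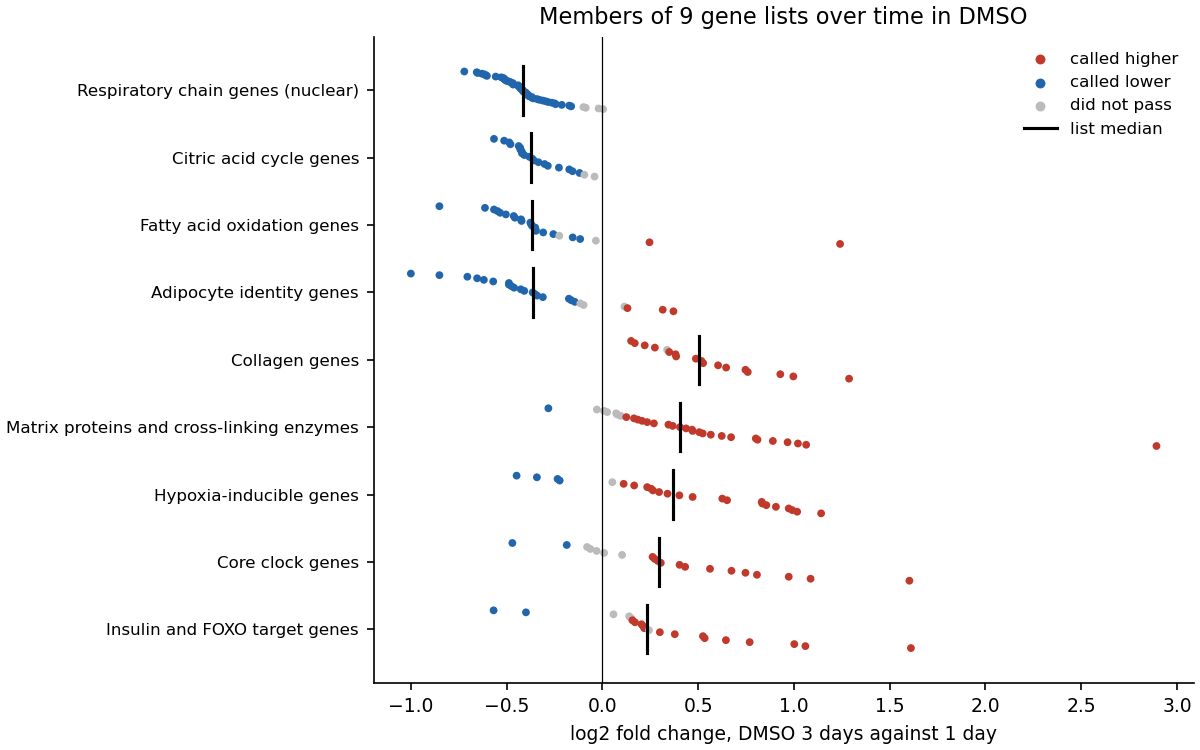
Log2 fold change of DMSO at 3 days against 1 day (horizontal axis) for each tested member of 9 gene lists; each point is a gene, red if it passed as higher, blue if lower, grey if it did not pass, and black bars are list medians. Respiratory chain points lie at or left of 0 with a median of -0.42, collagen points lie right of 0 with a median of 0.50, and fatty acid oxidation has 2 points to the right, Pdk4 and Cpt1a.

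Most tested genes of a list of insulin and FOXO targets rose. Insulin signalling and FOXO activity were not measured. Of 20 tested members (of 24 listed) 14 were higher and 2 lower, with a median of 0.23. Without DMSO 3 days replicate 2 the number higher was 9. Txnip, an arrestin that limits glucose uptake, stood at 944 and 977 CPM at 1 day and at 1897 and 1951 CPM at 3 days, 2-fold higher (log2 fold change 1.00, SE 0.05, adjusted p = 8.9e-15). Besides Pik3ip1, the ubiquitin ligase gene Fbxo32 went from 11.4 and 12.4 CPM to 24.7 and 24.9 CPM (log2 fold change 1.06), Ccng2, a cyclin of resting cells, from 79.0 and 75.9 CPM to 133 and 131 CPM (0.77), and the cell cycle inhibitor Cdkn1b rose by 0.65. None of these overlapped between times. Srebf1, which insulin raises, is a member of the list and fell. Among glucocorticoid receptor targets 9 of 23 were higher and 5 lower, with Pdk4, Per1 and Angptl4 (0.74) higher and Rasd1 (-1.04) and Pik3r1 (-0.64) lower. Fkbp5 (-0.15) and Tsc22d3 (-0.14), standard targets of that receptor, did not pass. Of cAMP and CREB early targets 6 of 19 were higher and 1 lower. Over all genes tested 18.1% were higher and 16.8% lower. The kinase Sik1 rose by 0.83 and Junb by 0.69, and Dusp1 fell by 0.32. The 12 that did not pass include Nr4a1, Nr4a2, Crem and Fosb.

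Hypoxia-inducible genes, which include many glycolytic regulators, had 19 of 24 members higher and 4 lower (median 0.37). The shares over all genes tested were 18.1% higher and 16.8% lower. Pfkfb3, which makes the activator of phosphofructokinase, stood at 388 and 369 CPM at 1 day and at 841 and 829 CPM at 3 days (2.21-fold, adjusted p = 8.9e-16). Kdm3a, a histone demethylase, went from 186 and 176 CPM to 342 and 335 CPM (0.91), Ndrg1 from 111 and 107 CPM to 196 and 191 CPM (0.84) and Bhlhe40 from 156 and 146 CPM to 296 and 294 CPM (0.97). The 2 libraries of each time lay close together and the times were apart at all 4 genes. Over the whole glycolysis list the direction was split, 8 of 21 higher and 9 lower (median -0.11). Slc2a1, the glucose carrier of most cells, rose by 0.65 and Gpi1 by 0.28, whereas Slc2a4, the insulin-responsive carrier of fat and muscle, fell by 0.31 and Ldhb by 0.41. Pfkfb3 is a member of both lists.

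Clock genes form a loop in which Arntl and Clock switch on Per, Cry and Nr1d genes through E-boxes, and these products repress the loop. In DMSO over time 13 of 20 tested members were higher, 2 lower and 5 did not pass (median 0.30). The shares over all genes tested were 18.1% higher and 16.8% lower. Of the Per, Cry and Nr1d repressors, Nr1d1, Nr1d2, Per1, Per2 (0.27) and Cry2 (0.31) rose, while Per3 (0.10, adjusted p = 0.088) and Cry1 (-0.03, adjusted p = 0.84) did not pass. Nr1d1 (chromosome 11, 98767932 to 98775333, minus strand) went from 5.18 and 5.58 CPM to 16.1 and 16.7 CPM, 3.04-fold (log2 fold change 1.60, SE 0.13, adjusted p = 4.7e-10), Nr1d2 from 79.0 and 79.8 CPM to 129 and 124 CPM (0.67), and Per1 (chromosome 11, 69095217 to 69109960, plus strand) from 44.4 and 42.2 CPM to 92.4 and 91.4 CPM (log2 fold change 1.09, SE 0.07, adjusted p = 1.4e-12). The 2 members that fell were the activators themselves: Arntl, from 12.8 and 12.3 CPM to 9.66 and 8.40 CPM (log2 fold change -0.47, adjusted p = 0.0024), and Clock, from 78.8 and 78.1 CPM to 69.1 and 68.8 CPM (-0.19, adjusted p = 0.011). At these 5 genes the times did not overlap. Bhlhe41, a further E-box repressor, rose from 9.37 and 9.77 CPM to 16.7 and 15.5 CPM (0.75), and Dbp, an output gene, from 40.9 and 45.6 CPM to 55.6 and 61.3 CPM (0.43). As stated above, the hour of collection is unknown here.

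Since most tested members of the clock and FOXO lists were higher, the promoters of both lists were searched on both strands, over a window from 250 bases before to 50 bases after the RefSeq start (GRCm38.p6), for the E-box CACGTG, which reads the same on both strands, and for the FOXO motif GTAAACA with its complement TGTTTAC. The motifs share no match. The E-box was in 4 of the 16 clock genes with a window (25%) and in 3 of the 10 that were called higher (30.0%), against 8.09% of 27025 genes with a window. The FOXO motif was in 2 of 17 list members (11.8%) and in 1 of 11 called higher (9.09%), against 4.05% of all. The 250 bases before the start are shown for the Per1 promoter (chr11:69098699-69098948, plus strand), the Bhlhe41 promoter (chr6:145865421-145865670, minus strand) and the Txnip promoter (chr3:96557707-96557956, plus strand), all from RefSeq and written 5′ to 3′ with the motif in capitals, since these are rising genes whose window holds it. It begins 166, 153 and 121 bases before the start in Per1, Bhlhe41 and Txnip. The Per1 window lies inside the gene span given above, so the RefSeq start used for Per1 is not its outermost annotated start.
Per1: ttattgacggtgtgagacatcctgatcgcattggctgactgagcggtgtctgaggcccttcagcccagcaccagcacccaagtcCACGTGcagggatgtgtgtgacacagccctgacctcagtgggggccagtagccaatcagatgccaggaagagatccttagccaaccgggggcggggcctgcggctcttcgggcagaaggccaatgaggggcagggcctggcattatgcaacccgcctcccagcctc
Bhlhe41: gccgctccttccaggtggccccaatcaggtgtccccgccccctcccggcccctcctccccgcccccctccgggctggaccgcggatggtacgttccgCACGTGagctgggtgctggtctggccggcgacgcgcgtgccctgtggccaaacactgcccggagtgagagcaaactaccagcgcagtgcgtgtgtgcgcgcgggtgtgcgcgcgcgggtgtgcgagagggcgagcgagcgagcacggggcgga
Txnip: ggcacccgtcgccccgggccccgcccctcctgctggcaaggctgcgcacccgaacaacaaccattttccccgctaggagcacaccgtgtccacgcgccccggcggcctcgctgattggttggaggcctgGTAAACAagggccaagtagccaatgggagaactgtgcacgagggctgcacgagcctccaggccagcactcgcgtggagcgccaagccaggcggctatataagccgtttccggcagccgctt
A match of letters is a description of the sequence, and binding was not measured in these libraries.

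Signalling lists moved in part, against 18.1% higher and 16.8% lower over all genes tested. In TGF-beta and BMP signal genes 11 of 28 tested members (of 35 listed) were higher and 6 lower, and the number higher was 5 without DMSO 1 day replicate 1 and 7 without DMSO 3 days replicate 2. Of the BMP-responsive Id genes 3 fell and Id4, under 1 CPM in these libraries, did not pass (-0.07). Id2 went from 46.5 and 51.0 CPM to 25 and 22 CPM (log2 fold change -1.06, SE 0.08, adjusted p = 4.5e-11), Id1 fell by 1.27 and Id3 by 0.68. Tgfbr2, the type II receptor for TGF-beta, rose by 0.32, and Fst, follistatin, by 1.31 from 1.51 and 1.88 CPM. Wnt signal genes had 9 of 22 tested members higher and 2 lower, the number higher falling to 4 with DESeq2, to 5 without either 1-day replicate and to 4 without DMSO 3 days replicate 2. Wisp1 rose by 0.52 and the receptor Fzd4 fell by 0.37. Of 27 adipokines and secreted factors 11 were higher and 10 lower: Fstl1 rose by 0.56, against falls of Cfd, Adipoq and Retn.

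The inflammatory lists differed from each other, against 18.1% higher and 16.8% lower over all genes tested. NF-kB and chemokine genes had 12 of 22 tested members (of 28 listed) higher and 1 lower, or 7 higher with DESeq2 or without DMSO 1 day replicate 1. The NF-kB subunits Nfkb2 and Relb went from 62.0 and 68.9 CPM to 83.8 and 86.4 CPM and from 35.3 and 34.7 CPM to 44.7 and 49.7 CPM (log2 fold changes 0.38 and 0.43), and the chemokine Cxcl1 from 2.21 and 2.31 CPM to 5.44 and 5.57 CPM (1.28). Nfkbia (0.20) and Il6 (1.10, adjusted p = 0.18) did not pass. Of STAT3 and acute phase genes 12 of 23 were higher and 4 lower. The cytokine receptor Osmr went from 87.3 and 85.1 CPM to 124 and 129 CPM (log2 fold change 0.55, SE 0.05, adjusted p = 3.1e-09), and Il6st and Stat3 rose by 0.44 and 0.43. Interferon-stimulated genes were near the background, with 6 of 32 higher and 2 lower. Only 1 was higher without DMSO 3 days replicate 2. Antigen presentation genes had 6 of 15 higher and 0 lower (lowest Psmb10 at -0.10), or 2 higher without DMSO 3 days replicate 2, with H2-K1 rising by 0.31. Leukocyte markers stayed at a summed 7.01 to 7.52 CPM in these libraries. In complement genes 3 of 11 were higher and 4 lower, including C3 at -0.18 and C1ra at 0.58.

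Protein handling genes split by compartment, against 18.1% higher and 16.8% lower over all genes tested. ER chaperone genes had 13 of 20 higher and 0 lower (median 0.19, lowest value 0.00). Hspa5, the chaperone BiP, was highest, at 1388 and 1267 CPM and then at 1774 and 1775 CPM (log2 fold change 0.42, SE 0.05, adjusted p = 5.4e-07). Lysosome and autophagy genes had 17 of 31 higher and 3 lower (median 0.24, lowest value -0.52 at Tfeb). Sqstm1, the autophagy receptor p62, went from 533 and 539 CPM to 780 and 827 CPM (0.58), and the autophagosome proteins Gabarapl1 and Map1lc3b rose by 0.70 each. Cytosolic ribosome and proteasome genes leaned down. Of 72 tested ribosomal protein genes 33 were lower and 0 higher (median -0.13, highest value 0.25 at Rpl34), or 20 lower without DMSO 1 day replicate 2 or DMSO 3 days replicate 2. Rplp1, a stalk protein, went from 269 and 272 CPM to 186 and 203 CPM (log2 fold change -0.47). Ribosomal protein genes have many near-identical pseudogene copies, among which the counting could split reads. Proteasome genes had 16 of 31 lower and 1 higher (median -0.15), with Psmb3 falling by 0.53.

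Stress lists leaned down or were mixed, against 18.1% higher and 16.8% lower over all genes tested. NRF2 target genes, the antioxidant set, had 10 of 26 lower and 3 higher: Osgin1 fell by 1.5, from 16.4 and 17 CPM to 5.59 and 6.19 CPM, and the pentose phosphate genes Taldo1, G6pdx and Tkt fell by 0.50, 0.37 and 0.27. The standard targets Nqo1 (-0.02), Gclm (-0.01) and Srxn1 (-0.12) did not pass. ATF4 and amino acid supply genes had 12 of 28 lower and 5 higher, the latter near the share over all genes. Atf4 and Atf3 themselves did not pass. The stress factors Ddit3 and Trib3 rose by 0.42 and 0.30, while the serine and asparagine synthesis genes Psat1, Psph and Asns fell by 0.33, 0.38 and 0.37. Heat shock genes had 6 of 18 lower and 2 higher. The mitochondrial chaperonin pair Hspe1 and Hspd1 fell by 0.43 and 0.28, and Hspd1 was at -0.16 without DMSO 1 day replicate 1. Cholesterol genes had 10 of 25 lower and 4 higher, Dhcr7 falling by 0.57 and the sterol exporter Abcg1 rising by 0.45. Of p53 targets 4 of 20 were higher and 5 lower, not far from the shares over all genes. Cell division genes gave 6 higher and 6 lower of 32, near the shares over all genes. Among the called members, Ccne1 and Ccne2, the cyclins of entry into S phase, fell by 0.78 and 0.54. The mitotic genes Cenpe and Bub1b rose by 0.41 and 0.23. The number higher was 3 with upper-quartile scaling or without DMSO 3 days replicate 2, and 2 without DMSO 3 days replicate 1. The 20 that did not pass include Mki67 (0.11), Cdk1 (-0.08), Ccna2, Mcm2 to Mcm7, Plk1, Aurka and Bub1.

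**Figure D4:**
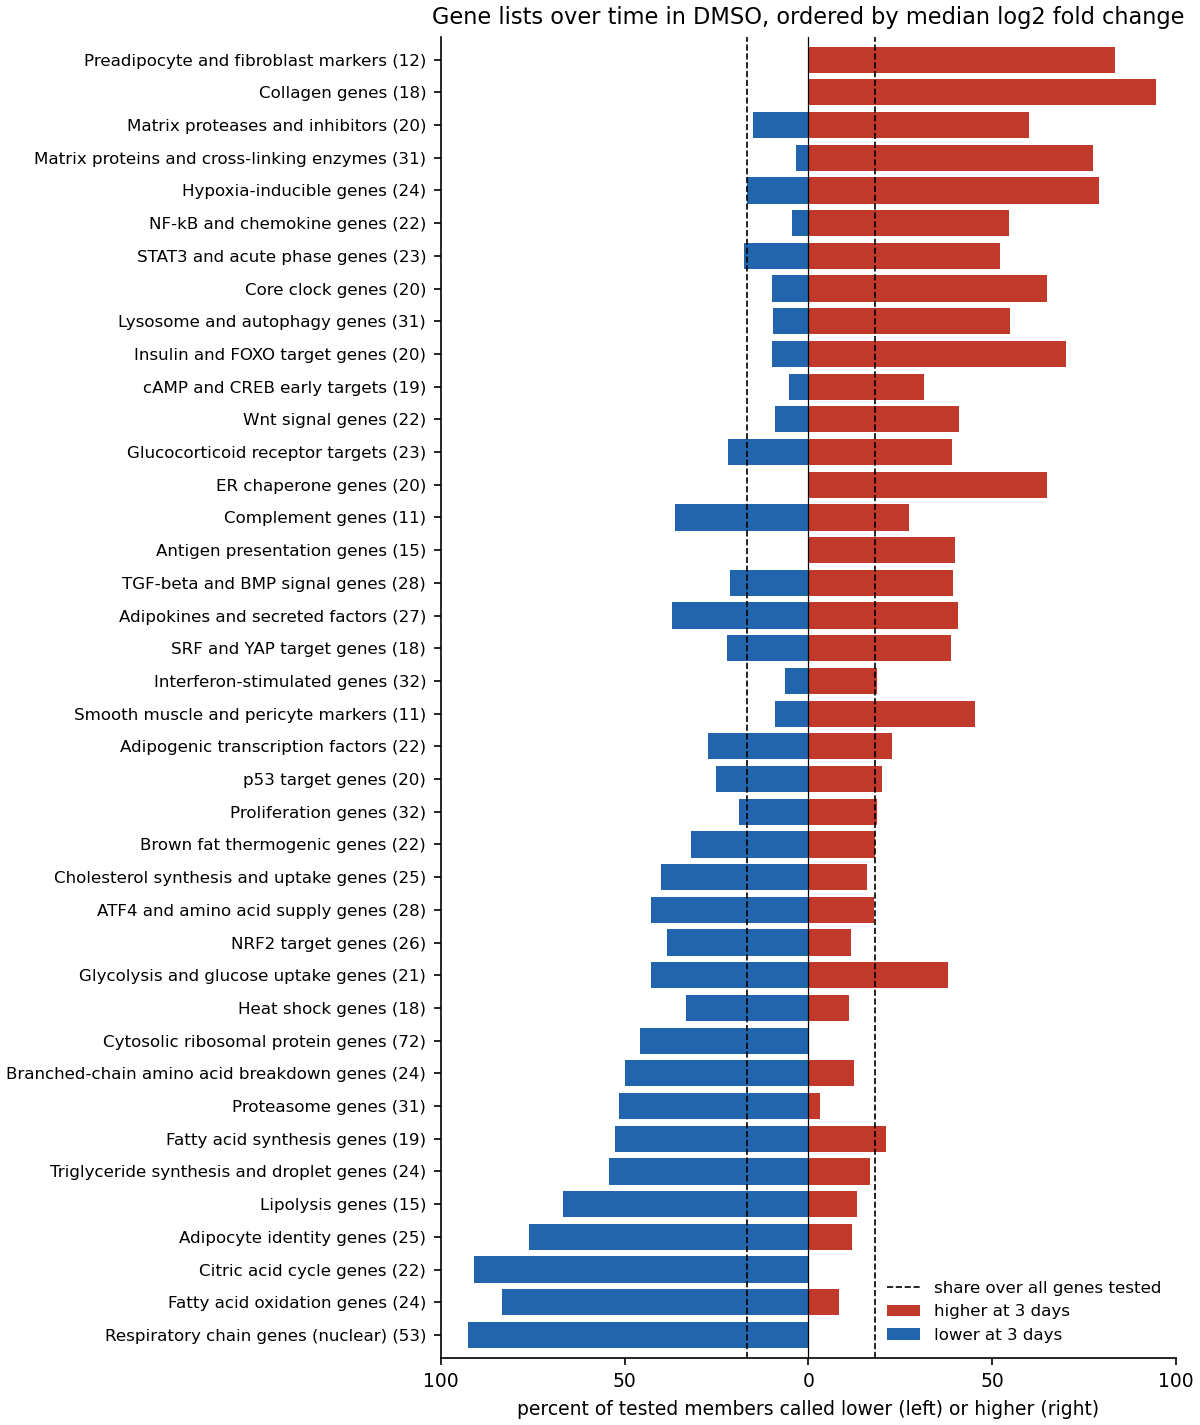
Percent of tested members called higher (red, to the right) and lower (blue, to the left) at 3 days in DMSO, for each list of 10 or more tested members (number in brackets), ordered by median log2 fold change. Dashed lines are the shares over all genes tested, 18.1% higher and 16.8% lower; precursor, collagen and matrix lists stand at the top and fatty acid oxidation and respiratory chain lists at the bottom.

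Markers of further cell types were scarce, or most of their tested members did not pass. Of 5 tested skeletal muscle markers 1 was higher, Mb, the oxygen store myoglobin, which brown fat also makes, at 189 and 197 CPM and then at 286 and 299 CPM (log2 fold change 0.60, SE 0.05, adjusted p = 7.5e-10). The muscle genes Acta1, Actn3 and Mylpf were under 1 CPM in all 4 DMSO libraries, and Des (-0.02) did not pass. With Mb included, the muscle list summed to 256 and 261 CPM at 1 day and to 351 and 363 CPM at 3 days. Endothelial markers summed to 12.3 and 11.6 CPM at 1 day and to 9.87 and 9.18 CPM at 3 days, 1 of 4 tested being lower: Egfl7, whose exons overlap those of Agpat2, which fell too. Schwann and neural markers summed to between 27.0 and 29.9 CPM and mesothelial markers to between 17.4 and 21.9 CPM in the DMSO libraries, with 1 of 5 lower (S100b) and 1 of 3 higher (Msln). S100b did not pass with DESeq2 (adjusted p = 0.086) or without DMSO 1 day replicate 2 or DMSO 3 days replicate 1, nor Msln without DMSO 1 day replicate 2 or either 3-day replicate. White adipocyte genes had 3 of 9 lower and 0 higher, against 16.8% lower and 18.1% higher over all genes tested.

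The same step from 1 to 3 days was then read in the 4 BML-260 libraries, which share none with the DMSO comparison but enter the same fit. With BML-260, 7051 genes were called, 46.4% of those tested. Of the 5313 genes called in DMSO 3833 were also called in the same direction with BML-260 (1992 higher and 1841 lower), which is 72.1% of the DMSO list and 54.4% of the BML-260 list. Only 82 were called in opposite directions, 1.54% and 1.16% of the lists. All 50 genes of the largest changes in DMSO (1 or more in absolute log2, 10 CPM or more) were called in the same direction with BML-260. Among the 249 without that limit on level 143 were, 105 were not called and 1, the cytoskeletal gene Dpysl3, was called the other way (1.32 in DMSO and -1.07 with BML-260, from 1.11 and 1.02 CPM to 2.03 and 3.30 CPM in DMSO; named after its values were seen).

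List medians over time are set side by side for 5 lists described above, with BML-260 first: -0.43 and -0.42 for the respiratory chain, -0.45 and -0.37 for the citric acid cycle, 0.60 and 0.50 for collagens, 0.50 and 0.30 for clock genes and 0.55 and 0.37 for hypoxia-inducible genes. At other lists the signs were opposite, among them interferon-stimulated genes (-0.34 and 0.08), adipokines (-0.12 and 0.11), glycolysis (0.09 and -0.11) and cell division genes (0.10 and -0.01). For single genes, Col3a1 rose by 1.33 with BML-260 and by 1.29 with DMSO, Fn1 by 0.80 in both, Postn by 1.09 and 1.06, and Ucp1 by 1.19 in both.

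The difference between the time effects was itself tested. It passed at 1284 genes, 8.44% of those tested (3.93% with a higher and 4.51% with a lower value with BML-260), and at 669 of the 5313 genes called in DMSO (12.6%). The difference, BML-260 minus DMSO, was called at 17 of 25 adipocyte identity genes, with list medians of -0.66 with BML-260 and -0.36 with DMSO. Adipoq fell by 1.28 with BML-260 and by 0.57 with DMSO (difference -0.71, SE 0.08, adjusted p = 9.3e-06), and Retn by 2.04 and 1.00 (adjusted p = 0.00078). Angptl4, an inhibitor of lipoprotein lipase, rose by 0.74 with DMSO and was at -0.14 with BML-260 (adjusted p of the difference 6.6e-05). Mb rose by 0.60 with DMSO and was at -0.03 with BML-260 (adjusted p of the difference 1.6e-05). In the other direction Ndrg1 rose by 1.54 with BML-260 and by 0.84 with DMSO (adjusted p of the difference 2.6e-07), and Per1 by 1.69 and 1.09 (0.00018). The difference was called at 8 of 53 respiratory chain genes and at 4 of 18 collagen genes.

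**Figure D5:**
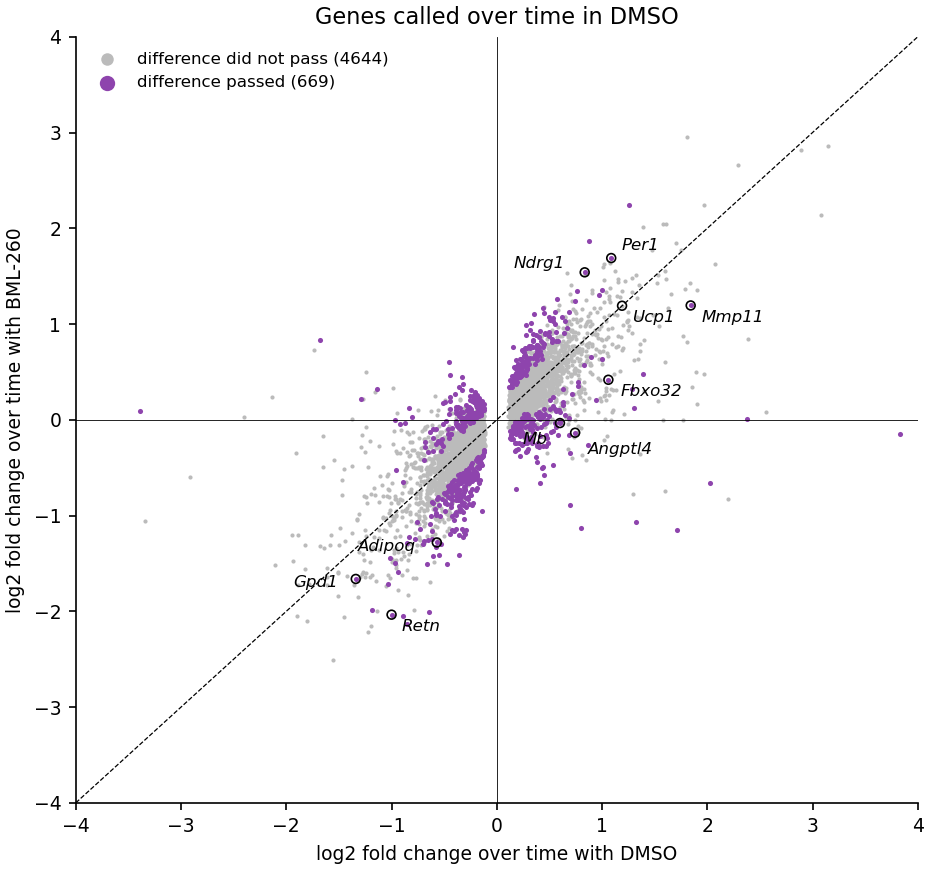
Log2 fold change from 1 to 3 days with BML-260 (vertical axis) against that with DMSO (horizontal axis) for the 5313 genes called over time in DMSO; purple points (669) passed the test of the difference, grey points did not, and the dashed line marks equal change. Most points lie in the upper right and lower left fields, Ucp1 lies on the line, and Angptl4 and Mb lie near 0 on the vertical axis.

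The ISO libraries, labelled 1 day, are set beside the DMSO times by level only, since they would share the DMSO libraries in any test. At all 24 named genes of largest change both ISO libraries were nearer the DMSO mean of 3 days than that of 1 day on the log2 scale. For example Gpd1 was at 612 and 545 CPM with ISO, against 1487 and 1510 CPM in DMSO at 1 day and 594 and 590 CPM at 3 days. These 24 genes were picked by their change in DMSO, and other genes differed. Fasn with ISO, at 1409 and 1510 CPM, was nearer DMSO at 1 day (1798 and 1845 CPM) than at 3 days (1010 and 951 CPM). Ucp1 with ISO, at 26.1 and 23.5 CPM, was above both DMSO times. The plot of 16 genes by library includes Gpd1, Fasn and Ucp1. Both BML-260 libraries of 1 day were nearer DMSO at 1 day at 22 of the 24 genes, and both BML-260 libraries of 3 days nearer DMSO at 3 days at 20.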

How the data were processed

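RNA from 10 libraries of brown adipocytes was sequenced, 2 per group. The deposited table holds whole-number read counts per gene symbol for each library; per the submitters' processing notes the authors used TopHat2 2.1.1, DESeq2, bedtools and bcl2fastq 2.17.1.14, and these notes list both mm10 and mm9 without saying what each was used for. The sources used here give neither the annotation nor the counting rule. Columns were matched to libraries by name, and deposited lists of other comparisons were not used.

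The counts were filtered with filterByExpr of edgeR 4.0.16 (minimum count 10, total 15), scaled by TMM and fitted by quasi-likelihood in R 4.3.3 with 1 mean per group over all 10 libraries, which leaves 5 residual degrees of freedom. CPM use TMM library sizes, SE is the absolute log2 fold change over the square root of F, and a gene is called at an adjusted p under 0.05 over all 15212 genes tested. The common dispersion was 0.00115, a coefficient of variation of 3.39% between libraries of a group beyond counting noise, which adds to it most at low counts. Depth was 16955918 to 21185675 counts. Listed genes that were not tested were missing from the table or under the filter.

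The members and lists were chosen with earlier results of these data known. Named genes are the 12 highest and 12 lowest log2 fold changes among called genes whose higher group averaged 10 CPM or more, without overlap of the libraries and without predicted-locus names, plus 11 genes always given and the 5 smallest p-values of each list; all others named, such as list members that did not pass and Cpt1a, Arntl, Clock, Bhlhe41 and Dbp, were chosen after their values were seen. Alternatives were DESeq2 1.42.0, its size factors, upper-quartile scaling, no filter, the 4 libraries alone, a replicate block and each DMSO library left out. Gene positions are from GENCODE M21 (GRCm38), which held 90.2% of tested symbols, and promoters from RefSeq (GRCm38.p6). The fit was tested on simulated counts.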

Additional observations from a re-analysis of the deposited data

Results flagged for a closer look

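Among the 35 genes named for the largest changes or always given, at 9 the change from 1 to 3 days differed between BML-260 and DMSO by edgeR's quasi-likelihood test of that difference with Benjamini-Hochberg adjustment. These 9 differences, BML-260 minus DMSO on the log2 scale, were negative. Over all 221 named genes tested 53 differences were called, 16 positive and 37 negative. Among the 16, Fasn fell less with BML-260 (-0.65) than with DMSO (-0.89, adjusted p of the difference 0.022). Those of the 9 that rose in DMSO rose less or were not called with BML-260: the matrix protease gene Mmp11 differed by -0.648 (1.84 with DMSO and 1.19 with BML-260, adjusted p = 0.00096), and Pparg by -0.309 (0.37 and 0.06, adjusted p = 0.0017). Those of the 9 that fell in DMSO fell further with BML-260: Gpd1 by a difference of -0.322 (adjusted p = 0.0075), Sucnr1 by -0.806 (adjusted p = 0.027), Adipoq by -0.711 (adjusted p = 9.3e-06), Fabp4 by -0.401 (adjusted p = 9.2e-05) and Cebpa by -0.44 (adjusted p = 0.003). At a pair of genes the change in DMSO had not passed: Ppargc1a differed by -0.29 (adjusted p = 0.035) and Adrb3, the beta-adrenergic receptor of fat cells, by -1.257 (0.18 with DMSO and -1.08 with BML-260, adjusted p = 8.2e-05).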

How the results depend on the processing

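None of the genes called over time in DMSO was called in the opposite direction under any alternative run. The count of 5313 was 3845 with DESeq2, 5253 with upper-quartile scaling (2409 higher and 2844 lower), 5049 with no filter, 5550 with the 4 libraries alone and 3803 to 4096 with 1 DMSO library left out; 3840 of the genes remained called with DESeq2 and 3669 to 3859 with a library left out. The count for the time effect with BML-260 minus time effect with DMSO, 1284, was 757 with DESeq2 and between 659 (without DMSO 1 day replicate 2) and 1163 with a library left out. With the replicate block 5455 genes were called (2823 higher and 2632 lower), 5304 of them among the 5313, and 1474 differences. Same-numbered libraries did not deviate together (correlations over 10 pairs of groups from -0.0344 to 0.0577), so the numbers were not taken to pair them. Of 199 named genes called, 187 kept their call in every alternative and 12 lost it in at least 1. Precision is limited by level: the median SE was 0.467 under 1 CPM and 0.048 at 100 CPM or more.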

Other observations

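Gene families outside the lists were grouped by symbol after the values were seen, and their counts are descriptions. Mitochondrial ribosomal proteins, which translate the proteins encoded in mitochondrial DNA, fell in most members. Of 76 tested, 61 were lower and 1 higher in DMSO at 3 days (median log2 fold change -0.29). The shares over all genes tested in DMSO were 16.8% lower and 18.1% higher. With BML-260 61 were lower, against 23.4% lower over all genes tested with BML-260. Mrpl12 stood at 98.0 and 96.3 CPM at 1 day and at 48.7 and 51.5 CPM at 3 days, with no overlap (log2 fold change -0.96). The import machinery of the TIM and TOM complexes had 13 of 22 lower and 0 higher (median -0.24), with Tomm5 at -0.64. Of 42 Slc25 carriers of the inner membrane 17 were lower and 3 higher.

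Some other families had more members higher than lower; over all genes tested 18.1% were higher and 16.8% lower. The ADAMTS secreted proteases had 9 of 16 higher and 1 lower (median 0.34), the lower one being Adamts15. Forkhead factors had 9 of 21 higher and 1 lower, among them Foxo3 at 0.53 and Foxp1 at 0.47. Kinesins, the microtubule motors, had 10 of 32 higher, and nucleoporins 7 of 20. Zinc finger genes of the Zfp series, at 56 higher and 25 lower of 322 (median 0.02), were near the share of all genes called higher. With BML-260 they gave 45 higher and 102 lower, against 22.9% higher and 23.4% lower over all genes tested with BML-260. A further pair of families leaned the other way. Hox genes had 4 of 22 lower, near the share over all genes, and 1 higher (median -0.15). Vacuolar ATPase subunits had 5 of 17 lower and 0 higher.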
